A study of Rattus norvegicus with 36 samples.

Results

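The comparison described here asked what removal of the superior cervical ganglia did to gene expression in the rat pineal gland at mid-day. Its members were 6 of the 36 libraries of the study, 3 of glands from ganglionectomized rats at day (SCGX day) and 3 of glands from sham-operated rats at day (Sham day), chosen by the surgery and the time that the labels give. Sprague-Dawley pups of both sexes were operated on at postnatal day 5, and their glands were taken at an age of 40 days at ZT7, mid-day in the light period. In SCGX rats both ganglia were removed, whereas in Sham rats the neck was opened and the ganglia were exposed but nothing was taken out. Other groups are used below as reference. Control rats had no surgery, and DCN rats (decentralization) kept the ganglia but lost the nerve trunk that feeds them. Each of these groups had 3 libraries at ZT7 and 3 at ZT19 (midnight), all from rats of the same strain and age. Glands of female rats in organ culture received 1 µM norepinephrine (NE), 500 µM dibutyryl cyclic AMP (DBcAMP) or no treatment, with 3 libraries each. Every library was made from pooled glands, so a replicate is a pool and the animals within it cannot be told apart. The p-values therefore measure the spread between pools.

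The pineal gland secretes melatonin at night. Its timing comes from the clock of the suprachiasmatic nucleus, which drives sympathetic neurons of the superior cervical ganglia to release NE onto the pinealocytes in the dark, and NE acts largely by raising cyclic AMP. By day these nerves are largely quiet in an intact animal. Removing the ganglia takes away the nerve endings themselves, whereas decentralization leaves the endings in the gland and takes away the signal from the clock. SCGX and Sham glands at mid-day thus compare a gland that lost its nerves early in life with one whose nerves are present but at their low daytime activity.

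The SCGX day libraries held 13944276 to 15741366 read-pairs on genes and the Sham day libraries 14465293 to 16022995. No replicates were identical. Replicate pairs differed by more than sampling noise, which gives a chi-square of about 1 per degree of freedom: SCGX day pairs had 5.70 to 6.90 and Sham day pairs 14.1 to 27.3. The files list genes by Ensembl identifier, and the gene table used here pairs none of them with a symbol. Known markers of pinealocytes, nerve, glia and other cells, and pathway lists, were therefore not analysed here, and genes are described by class, with at most 2 identifiers named in each direction. As a measure of tissue, an unoperated pineal library at day was set against a library of mixed tissue, for genes with a mean normalized count over 30. The 221 genes with over 8 times the level in the pineal library took 7.16% to 7.77% of the normalized counts in SCGX day and 5.96% to 6.75% in Sham day. The 2087 genes with over 8 times the level in mixed tissue took 0.324% to 0.357% in SCGX day and 0.327% to 0.481% in Sham day. The part of these differences in the results below was not tested. In such bulk samples, fewer cells of a type and less RNA per cell cannot be told apart.

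At mid-day 86 genes differed between SCGX and Sham, with 50 raised and 36 lowered in SCGX. Most of the raised genes were genes whose level rises at night in Control rats, and most of the lowered genes were genes whose level falls at night. A gene was called when its adjusted p was under 0.001 and its fold change was greater than 2, by edgeR's quasi-likelihood F-test, with p adjusted by Benjamini-Hochberg over 15758 genes. The 86 genes are 0.546% of those tested, with 0.317% raised and 0.228% lowered. The median fold change among them was 1.48 on the log2 scale for raised genes and -1.49 for lowered genes, against -0.01 over all genes tested. Beyond a 4-fold change there were 16 raised and 7 lowered genes. Called genes were abundant, with a median of 32.7 RPKM (read-pairs per kilobase of gene, scaled to the library's total) against 10.4 RPKM over all genes tested. The raised genes had a median of 16.1 RPKM in Sham day and 62.8 RPKM in SCGX day. The lowered genes had a median of 43.4 RPKM in Sham day and 13.9 RPKM in SCGX day. At an adjusted p under 0.05 with no limit on fold change, 1037 genes (6.58%) were raised and 761 (4.83%) lowered.

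The number of calls rested on the libraries at hand. Leaving out SCGX day replicate 1, 2 or 3 gave 6, 18 or 7 calls, and leaving out Sham day replicate 1, 2 or 3 gave 101, 11 or 60 calls. In each of these fits all 86 genes had an adjusted p under 0.05. The fits reuse libraries that chose the genes, so this is a description and not independent support. The stricter rule for calls (adjusted p under 0.001, fold change over 2) was passed by 3 of the 86 genes in every one of the 6 fits and by 73 in at least 1.

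**Figure D1:**
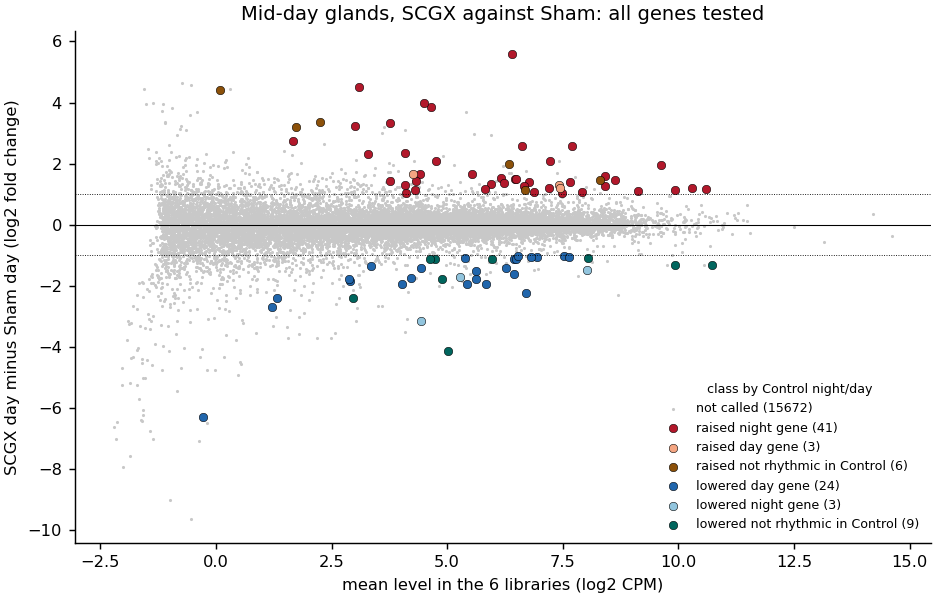
The log2 fold change of SCGX day over Sham day (y axis) is plotted against the mean level in the 6 libraries in log2 CPM, counts scaled to the library's normalized total (x axis) for all 15758 genes tested. Grey points are genes that were not called, coloured points are the 86 called genes by their night/day class in Control, and dotted lines mark a 2-fold change; the 41 raised night genes and 24 lowered day genes make up most of the called genes.

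The 86 genes were then sorted by the night/day difference of Control, in 6 libraries that took no part in calling them. At an adjusted p under 0.05, 2842 of 15622 genes tested in Control (18.2%) were higher at night and 2665 (17.1%) were higher at day, here called night genes and day genes. Of the 50 raised genes 41 were night genes, 3 were day genes and 6 were neither. Of the 36 lowered genes 24 were day genes, 3 were night genes and 9 were neither. Genes that were neither are called not rhythmic below, which means that the test did not pass and does not show a flat level. In Control the raised night genes had a median log2 fold change of 1.87 at night, with a range from 0.37 to 7.72. The lowered day genes had a median of -1.56, with a range from -3.68 to -0.86. The larger set at an adjusted p under 0.05 was less one-sided. Night genes made up 59.6% of its 1037 raised genes, against 17.7% of all genes tested, and day genes made up 47% of its 761 lowered genes, against 16.8%. In that set 325 raised and 318 lowered genes were not rhythmic in Control. Across the 15363 genes tested in both comparisons, the log2 fold changes had Pearson's r = 0.281 and Spearman's rho = 0.301, as a description over genes, which are not independent replicates.

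The share of genes called grew with the size of the night/day change in Control. Among night genes with a fold change in Control under 2, 0.353% of 1982 genes were raised in SCGX day. The share was 2.92% of 479 genes at 2 to 4-fold, 5.05% of 198 genes at 4 to 8-fold and 7.58% of 132 genes over 8-fold. Among day genes the share lowered in SCGX day was 0.263% of 1899, 1.88% of 584, 3.82% of 131 and 7.5% of 40 genes over the same steps. Among the 9918 genes not rhythmic in Control, 0.0605% were raised and 0.0907% lowered. Even the strongest rhythmic genes were thus mostly not called. Of the 282 tested genes that were higher at night in Control at an adjusted p under 0.001 and over 4-fold, 19 were called raised and 0 lowered in SCGX day by edgeR. At an adjusted p under 0.05, 134 of them were raised and 10 lowered, with a median log2 fold change of 0.85. Without SCGX day replicate 3 the 134 became 83. Of the 76 strong day genes, 8 were called lowered and 0 raised, 31 were lowered and 7 raised at an adjusted p under 0.05, and the median was -0.57.

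**Figure D2:**
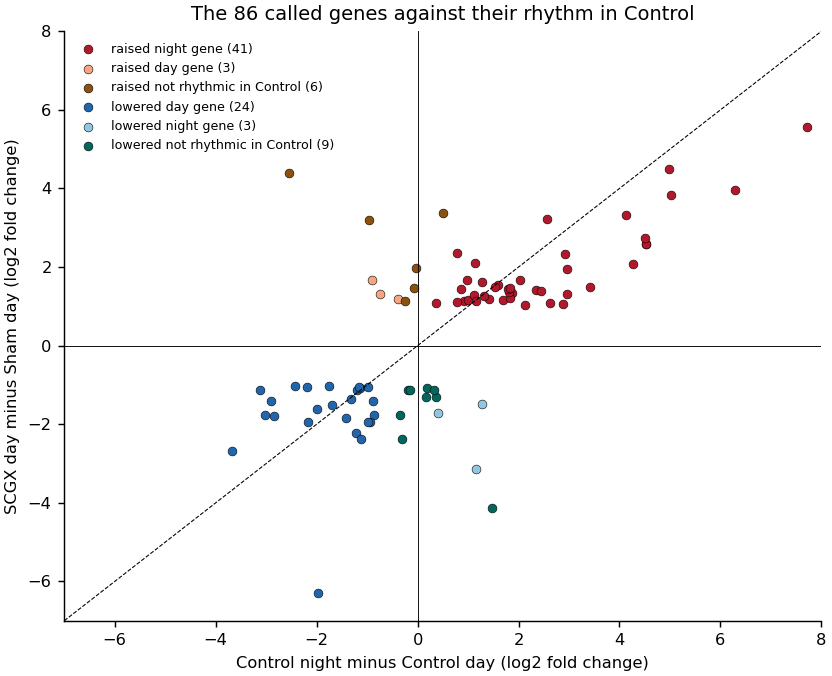
For the 86 called genes the log2 fold change of SCGX day over Sham day (y axis) is plotted against that of Control night over Control day (x axis), with 1 point per gene, coloured by class. The dashed line marks equal values; raised night genes lie in the upper right and lowered day genes in the lower left, most of both between the x axis and the line, while the 6 genes in the opposing corners that are rhythmic are the 3 raised day genes and the 3 lowered night genes.

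The level of each class was set side by side in all groups as the mean log2 level of its genes relative to Control day. For the 41 raised night genes it was 0.01, 0.08 and 0.06 in the 3 Sham day libraries and 1.96, 1.85 and 2.07 in the 3 SCGX day libraries. The mean was 0.05 ± 0.04 (SD, n = 3) in Sham day and 1.96 ± 0.11 in SCGX day. At midnight the class stood at 2.50 ± 0.15 in Control and 2.45 ± 0.20 in Sham, and at 1.55 ± 0.11 in SCGX. SCGX day libraries were thus below every Control and Sham night library and above every SCGX night library. The DCN group stood lower at day, at 1.04 ± 0.17, and at 1.45 ± 0.23 at night. Gene by gene, the distance from Sham day to SCGX day was set against the distance from Control day to Control night on the log2 scale. It had a median of 80.2% for the raised night genes, where 35 of 41 covered over 50% and 11 over 100%. These differences between SCGX day and Sham day chose the genes, so they are a description and were not tested again. The rule for calls also required a change over 2-fold, which forces a high percentage on genes with a small Control change. A gene that changed under 2-fold in Control is placed near or over 100% by that rule alone. The percentages thus do not show how far night genes in general moved. The 282 strong night genes, chosen from Control alone, had a median log2 fold change of 0.85.

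The 24 lowered day genes stood at 0.12 to 0.14 in the Sham day libraries and at -1.40, -1.63 and -1.64 in the SCGX day libraries. Their mean was -1.55 ± 0.14 (SD, n = 3) in SCGX day, -1.42 ± 0.10 in SCGX night, -1.16 ± 0.21 in DCN day and -1.51 ± 0.17 in DCN night. At midnight it was -1.76 ± 0.10 in Control and -1.64 ± 0.15 in Sham. The SCGX day libraries overlapped those of SCGX night and those of Sham night, and all SCGX libraries lay below all Control day and Sham day libraries. Their distance from Sham day to SCGX day had a median of 92.4% of the Control night/day distance, where 20 of 24 covered over 50% and 10 over 100%. The rule for calls bears on these counts in the same way.

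The 6 rhythmic genes that moved against their night/day direction formed a separate pattern. The 3 lowered night genes stood at -1.92 ± 0.06 (SD, n = 3) in SCGX day and -1.41 ± 0.07 in SCGX night, below Control at day and at night, where they stood at 0.96 ± 0.20. The 3 raised day genes stood at 1.30 ± 0.09 in SCGX day and 1.00 ± 0.07 in SCGX night, above Control at day and at night, where they stood at -0.66 ± 0.08. Both sets were thus displaced to the far side of their intact daytime level, away from the night level. For SCGX day this follows from how the sets were chosen, while the SCGX night libraries took no part in that choice. The 9 lowered genes that were not rhythmic stood at -1.38 ± 0.09 in SCGX day, -0.90 ± 0.31 in SCGX night, -0.98 ± 0.39 in DCN day and 0.32 ± 0.06 in Sham day. The 6 raised genes that were not rhythmic stood at 1.88 ± 0.15 in SCGX day, 1.04 ± 0.20 in SCGX night and -0.56 ± 0.11 in Sham day. For these sets the Sham day mean lay on the far side of Control day, so the mean difference from Sham day is larger than that from Control day. Among the genes that are not rhythmic this did not hold for every gene. The one raised most against Sham day was raised least against Control day, with a log2 fold change of 0.61 (edgeR). The other raised ones had closer values in both comparisons. Among the lowered ones ENSRNOG00000012051 had the largest gap. Both genes varied over 4-fold within other groups, as described below.

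**Figure D3:**
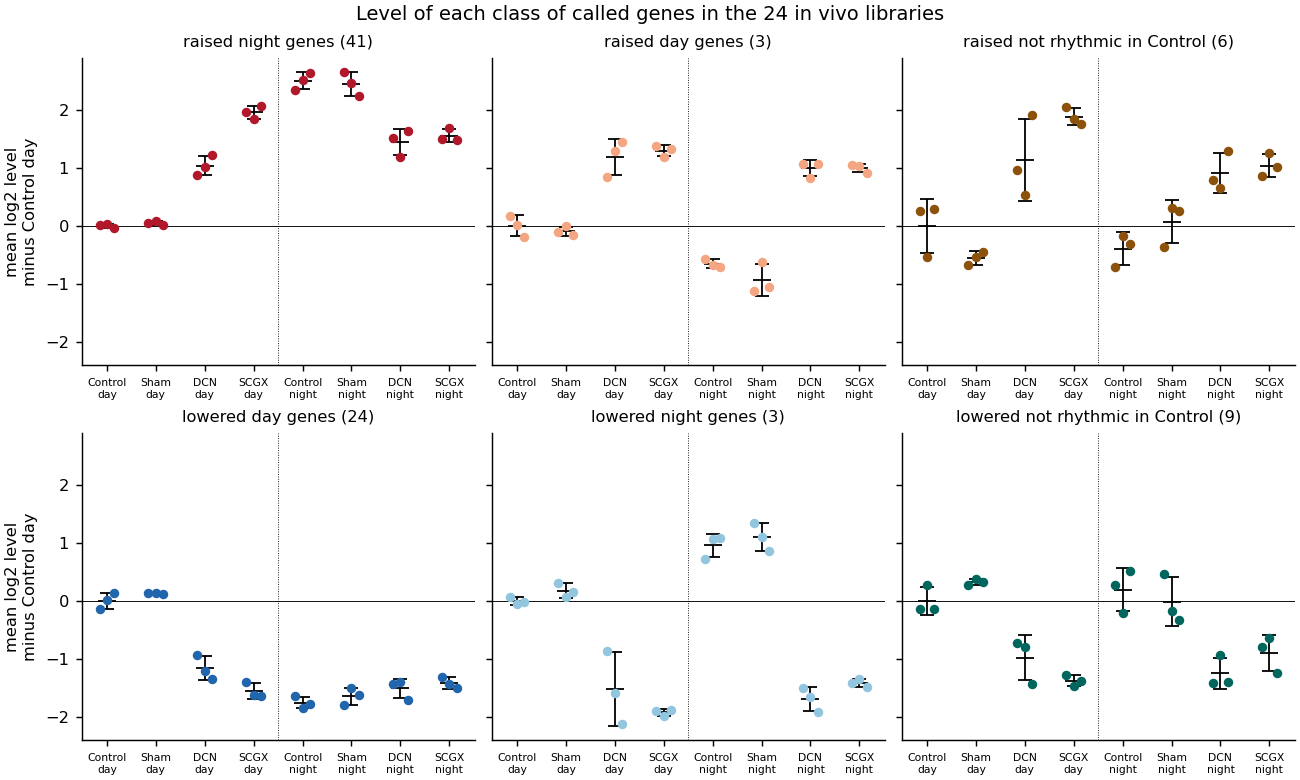
Each panel shows 1 class of called genes, with the mean log2 level of its genes minus the Control day mean (y axis) in the 24 in vivo libraries by group (x axis, day groups left of the dotted line). Points are libraries and bars are the mean and SD of 3; SCGX libraries of the raised night genes sit between 1.48 and 2.07 at both times, while Sham libraries move from 0.01 to 0.08 at day to 2.24 to 2.65 at night.

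The same surgery was compared at midnight in SCGX night and Sham night, libraries that took no part in the selection at day. There 11.6% of 15886 genes were higher and 9.13% lower in SCGX at an adjusted p under 0.05 (edgeR). Among the 41 genes raised at day that are night genes, 19 were lower and 3 higher at midnight in SCGX, with a median log2 fold change of -0.69. Among the 24 lowered day genes 10 were higher and 4 lower at midnight, with a median of 0.57. Without SCGX night replicate 3 the 10 became 5. The shares among all night genes and all day genes of Control were not computed at midnight. These counts can therefore not be read as particular to the called genes. At midnight 12 of the 41 and 7 of the 24 genes kept the sign they had at day, ENSRNOG00000011438 among the latter. The 3 lowered night genes were lower and the 3 raised day genes higher at midnight too, with medians of -2.61 and 2.16. Of the 9 lowered genes that are not rhythmic 5 were lower and 0 higher by edgeR, with a median of -0.75, and all 9 had a fold change below 0. Of the 5 raised genes that are not rhythmic and were tested, 1 was higher and 0 were lower.

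The change of the difference between day and midnight was tested directly, as the interaction of surgery and time in the 12 SCGX and Sham libraries. It passed an adjusted p under 0.001 for 728 of 15894 genes (4.58%), with a lower ratio of SCGX to Sham at night than at day for 529 (3.33%) and a higher one for 199 (1.25%). Since the fit holds the libraries that chose the called genes, the counts among them are a description. They also require an interaction over 2-fold, a limit that was not set for the 728. For the raised night genes 30 of 41 passed, all of them negative, and for the lowered day genes 14 of 24 passed, all of them positive. Of the called genes outside these classes 1 passed, a raised gene that is not rhythmic.

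The culture experiment measured the response of these genes to the transmitter of the missing nerves, again in libraries that took no part in the selection. NE raised 14.2% and lowered 16.1% of the 15219 genes tested at an adjusted p under 0.05 (edgeR). Of the 41 raised night genes 32 were raised by NE and 3 were lowered, with a median log2 fold change of 1.31. Among all night genes of Control tested in culture, 48.4% of 2771 were raised by NE. Of the 23 lowered day genes tested in culture 12 were lowered and 2 raised by NE, with a median of -0.27, and 38.7% of all 2570 day genes were lowered. The 3 lowered night genes were each raised by NE, with a median of 1.49, and the 3 raised day genes were each lowered, with a median of -0.37. These 6 genes thus moved with NE in the direction of the intact night and in SCGX glands in the opposite one. Of the 9 lowered genes that are not rhythmic 5 were raised and 0 lowered by NE, with a median of 0.44. Seen from all night genes, 2.41% of 1330 night genes that NE raised were called raised in SCGX day, against 0.635% of 1418 night genes that NE did not raise. Of the 98 tested genes that NE raised over 4-fold at an adjusted p under 0.001, 13 were called raised in SCGX day (13.3%, beside 0.317% of all genes tested) and 0 lowered, and their median log2 fold change was 0.42. At an adjusted p under 0.05, 35 of the 98 were raised (35.7%, beside 6.58% of all) and 14 lowered (14.3%, beside 4.83%). Of the 11 genes that NE lowered over 4-fold, 1 was called raised and 1 lowered, with a median log2 fold change of 0.0072 over the 11.

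DBcAMP, an analog of cyclic AMP that enters cells, raised 19.4% and lowered 22.5% of 15196 genes at the same threshold. Of the raised night genes 33 were raised and 5 lowered, with a median of 1.18, and 51% of all 2775 night genes tested were raised. Of the 23 lowered day genes 9 were lowered and 5 raised, with a median of -0.06, and 47.1% of all 2574 day genes were lowered. Both treatments share the untreated libraries, so their counts are not independent of each other.

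**Figure D4:**
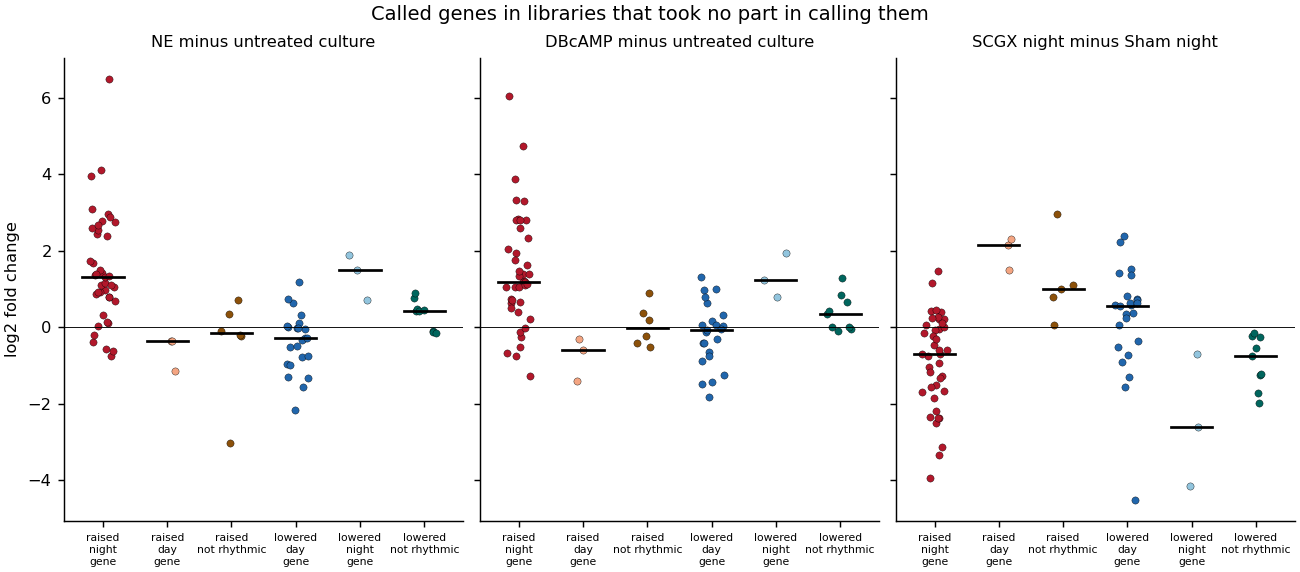
The 3 panels give the log2 fold change (y axis) of the called genes by class (x axis) for NE over untreated culture, DBcAMP over untreated culture and SCGX night over Sham night, with 1 point per gene and a bar at the median. The raised night genes have medians of 1.31, 1.18 and -0.69, and the lowered day genes have medians of -0.27, -0.06 and 0.57.

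The other day groups were compared with SCGX day as well, and these comparisons share libraries with the one that chose the genes. SCGX day differed from Control day in 218 of 15703 genes (1.39%), 144 higher (0.917%) and 74 lower (0.471%) in SCGX. At an adjusted p under 0.05, 11.7% of genes were higher and 11.4% lower. All 41 raised night genes and all 24 lowered day genes had an adjusted p under 0.05 there in the same direction, with medians of 1.55 and -1.33. Of the 15 called genes that are not rhythmic 13 did, 5 of the 6 raised and 8 of the 9 lowered. SCGX day and DCN day differed in 0 of 15902 genes (0%) with edgeR, while 3134 genes had an unadjusted p under 0.05 and DESeq2 called 56. At an adjusted p under 0.05, 94 genes (0.591%) were higher and 27 (0.17%) lower in SCGX. Of the raised night genes 18 of 41 were higher in SCGX than in DCN, with a median log2 fold change of 0.72. Of the 23 lowered day genes tested 2 were lower, with a median of -0.27. DCN day was compared with Sham day by the same test, which called 0 of 16076 genes (0%), with 3560 at an unadjusted p under 0.05 and 407 at an adjusted p under 0.05 (2.53%). DESeq2 was not run on that comparison here. The paper, which used DESeq2, listed genes that differed over 2-fold between DCN and Sham at both times (adjusted p under 0.001). The common coefficient of variation was 22.5% in the edgeR fit of DCN day and Sham day, against 15.1% for SCGX day and Sham day. The raised night genes had a median of 0.80 in that comparison and the lowered day genes a median of -1.08, with 39 of 41 above and 24 of 24 below 0.

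The 2 identifiers raised most were both night genes. ENSRNOG00000011182, with 1570 bases of annotated transcript, had 11.4, 14.8 and 10.6 CPM (counts scaled to the library's normalized total) in the Sham day libraries and 622, 432 and 705 CPM in the SCGX day libraries. Every SCGX day library was far above every Sham day library. Its log2 fold change of 5.57 had a standard error of 0.22 (edgeR, adjusted p = 5.54e-05), and it passed the threshold in each fit without 1 library. It stood at 10.5 ± 2.12 CPM (SD, n = 3) in Control day and 2241 ± 407 CPM in Control night, so the SCGX day level of 586 ± 140 CPM lay between them. SCGX night was at 386 ± 49.4 CPM, and its highest library was just above the lowest SCGX day library. DCN libraries were at 144 ± 31.9 CPM by day and 271 ± 117 CPM at night. In culture NE took it from 4.77 ± 1.26 to 435 ± 11.1 CPM.

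ENSRNOG00000017927, with 1422 bases, had 3.29, 1.05 and 1.14 CPM in Sham day and 38.9, 40.2 and 46.7 CPM in SCGX day. The groups did not overlap, and Sham day replicate 1 was above the other Sham libraries. Its log2 fold change of 4.50 had a standard error of 0.35 (edgeR, adjusted p = 3.96e-04). The adjusted p was 0.00171 without Sham day replicate 2 and 0.00392, 0.00297 and 0.00443 without SCGX day replicate 1, 2 and 3, so the call was lost there. The log2 fold change was 5.25 without Sham day replicate 1 and 2.25 with DESeq2's fold change prior. The SCGX libraries of both times overlapped, at 41.9 ± 4.21 CPM (SD, n = 3) by day and 37.1 ± 10.5 CPM at night, and DCN stood at 26.2 ± 10.7 and 31.6 ± 7.81 CPM. Control rose from 1.81 ± 0.11 CPM by day to 58.0 ± 9.96 CPM at night. NE in culture took it to 12.2 ± 3.74 CPM from 1.78 ± 0.82 CPM.

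ENSRNOG00000011438, a day gene with 1607 bases, was nearly absent without the ganglia. The Sham day libraries held 87, 51 and 57 read-pairs and the SCGX day libraries held 2, 0 and 0. Per read-pair counted, the level was 92.1 times higher in Sham than in SCGX over the pooled counts, with an exact 95% interval from 25.2 to 766 that covers counting error only. Its fitted log2 fold change of -6.28 (standard error 0.61, adjusted p = 9.55e-04) depends on how the fit treats counts of 0. It was -8.96 without SCGX day replicate 1, which held the only read-pairs of its group, and -2.40 with DESeq2's fold change prior. The call was close to the threshold and was lost without any 1 of the 6 libraries, where the adjusted p was between 0.00132 and 0.00738. SCGX night libraries held 0, 0 and 2 read-pairs, DCN day 5, 0 and 1 and DCN night 1 each. Control held 68 to 128 read-pairs by day and 11 to 32 at night. All SCGX and DCN libraries were thus below all libraries of Control and Sham at either time. In culture, untreated glands held 18 to 60 read-pairs.

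ENSRNOG00000012051, with 2210 bases, had the smallest adjusted p of the comparison. It was classed as not rhythmic because the night/day test in Control did not pass. That test gave a log2 fold change of 1.48 with a standard error of 0.98 (edgeR, adjusted p = 0.275). It had 120, 155 and 129 CPM in the Sham day libraries and 7.65, 7.0 and 8.51 CPM in the SCGX day libraries, with a log2 fold change of -4.13 (standard error 0.13, adjusted p = 1.36e-05). It kept its call in each fit without 1 library. The other groups show that its level also differed between pools given the same treatment. It was 101, 110 and 8.57 CPM in Control day and 270, 18.9 and 328 CPM in Control night. In Sham night it was 345, 18.1 and 14.2 CPM, and in SCGX night 143, 152 and 5.49 CPM. Over the 24 in vivo libraries 12 were above 100 CPM, 12 were below 20 CPM and 0 were between, and each of the 6 other groups held both kinds. In Control the libraries above 100 CPM were higher at night than by day, and so were those below 20 CPM. The mix of both kinds enters the spread of the night/day test, so that test cannot show a flat level. In a model of all 24 libraries, whose spread includes these groups, its log2 fold change was the same but its standard error was 1.60 and its adjusted p was 0.104. Of the 3 SCGX night libraries 2 were high and 1 was low.

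**Figure D5:**
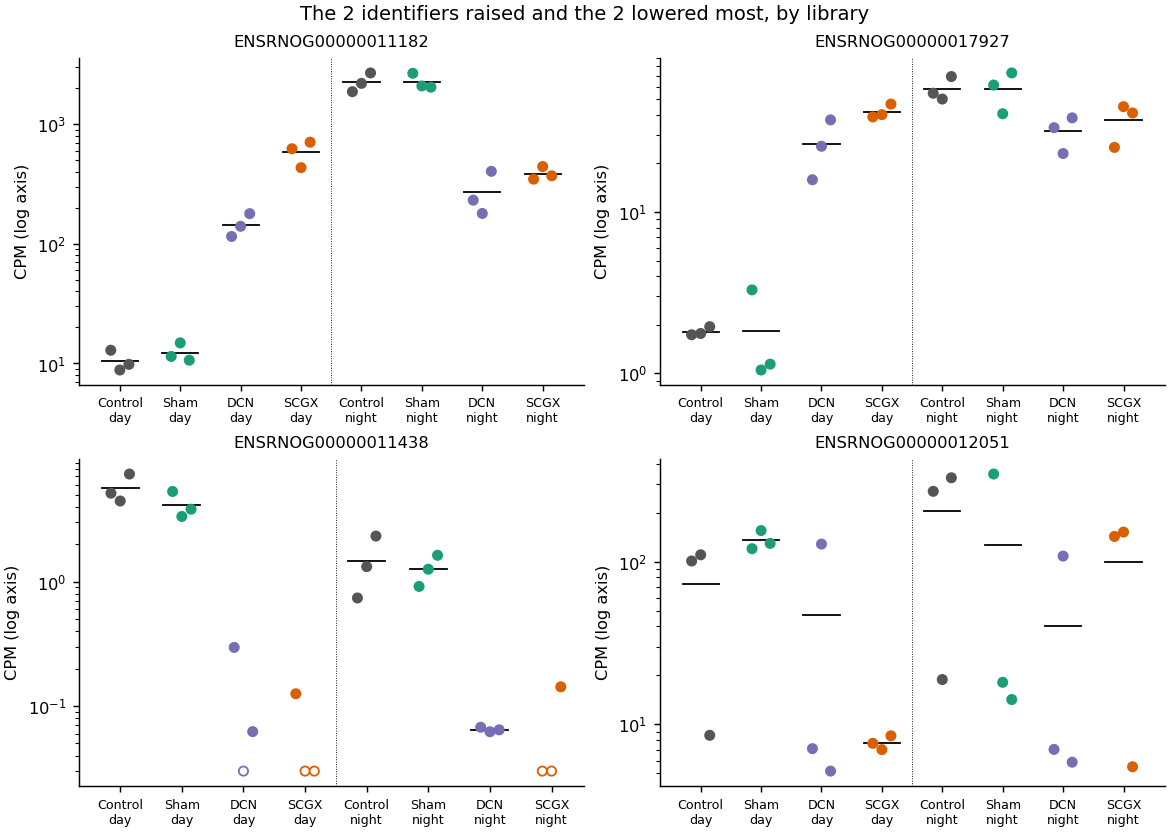
Each panel gives 1 identifier in CPM on a log axis (y axis) in the 24 in vivo libraries by group (x axis, day groups left of the dotted line), with a bar at the mean of 3. Open points at the bottom of a panel are libraries with 0 read-pairs, drawn at 0.03 CPM, and groups with such a library have no bar; ENSRNOG00000012051 falls into high and low libraries in every group other than Sham day and SCGX day.

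The called genes were then searched for others of this kind, a search chosen after the values above were seen. A range over 4-fold among the 3 libraries in at least 3 of the 6 other in vivo groups was found for 4 of the 86 genes (4.65%), against 92 of the 15758 genes tested (0.584%). Of the 4 genes, 2 were raised and 2 lowered. None of the 4 passed in the model of all 24 libraries, where their adjusted p was between 0.0103 and 0.104. Without them 82 genes remained, 48 raised and 34 lowered, with 40 night genes among the raised and 23 day genes among the lowered. A range over 4-fold in at least 1 of the 6 groups was found for 8.14% of the called genes and 8.71% of all genes tested.

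Genes enriched in the pineal gland were described last, with an enrichment ratio that rests on 1 library of each tissue. Of the 50 raised genes 7 were among the 221 pineal-enriched genes and of the 36 lowered genes 4 were, against 216 of the 15758 genes tested (1.37%). Enriched genes needed a mean normalized count over 30, and called genes were more abundant than all genes tested (median of 32.7 against 10.4 RPKM). The part of abundance in these shares was not tested. Of those 216 genes 40 were raised and 31 lowered at an adjusted p under 0.05, with a median log2 fold change of -0.02 over the set. These are 18.5% and 14.4%, beside 6.58% and 4.83% of all genes tested. Among the 90 of them that are not rhythmic in Control 6 were raised (6.67%) and 10 lowered (11.1%) at that threshold.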

How the data were processed

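Stranded, ribo-depleted RNA was measured in 36 libraries, 35 of pineal glands and 1 of mixed tissue. The authors aligned read-pairs with RNA-STAR (STAR 2.3.1y in the submitters' processing notes) to the rn4 assembly and counted them per Ensembl gene with QoRTs, strand by strand, with those that match several genes left out, which can undercount near-identical copies. The authors deposited 1 table per library with the raw count of read-pairs for each of 29516 genes and no other entries. The deposited RPKM values equal these counts over gene length and library total, as was checked.

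Counts were tested with edgeR 4.0.16 in R 4.3.3 (TMM, quasi-likelihood test, Benjamini-Hochberg), on the libraries of each comparison, for genes whose normalized counts averaged 5 or more. Figures used Python 3.11.15 and matplotlib 3.10.9. CPM and class levels use TMM over the 24 in vivo or the 9 culture libraries, with a prior count of 2 on the log2 scale. An exact permutation of 3 against 3 libraries has a smallest p of 0.1, so single genes rest on the fit across all genes. Totals on genes were 12985072 to 18504240 in vivo, and intervals cover counting error only.

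Thresholds follow the study. The members, classes and lists were chosen with earlier results of these data known. Other settings tried were DESeq2 1.42.0 (also with a prior on fold changes), scaling by median of ratios or by library total alone, other count filters, all in vivo libraries in 1 model, an adjusted p under 0.05, the replicate number as a block and leaving out each library. The DBcAMP, SCGX night and DCN day comparisons with their references and the search for genes variable within groups were added after the data were seen. Identifiers could not be paired with symbols, so the rule for named genes came down to the 2 called identifiers raised most and the 2 lowered most by fold change, and lists of pathway genes and of cell markers were not analysed here.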

Additional observations from a re-analysis of the deposited data

Results flagged for a closer look

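The difference between SCGX and Sham glands itself differed between day and night, by edgeR's test of the interaction of surgery and time at an adjusted p under 0.001, for 728 of 15894 genes. Among the identifiers named above it did so for ENSRNOG00000011182, where the log2 fold change of SCGX over Sham was 5.57 at day and -2.49 at night and the interaction was -8.12 (adjusted p = 5.10e-08). It also did so for ENSRNOG00000017927, where the values were 4.50 and -0.60 and the interaction was -5.14 (adjusted p = 2.41e-05). For the lowered identifiers the interaction was 1.73 (adjusted p = 0.518) for ENSRNOG00000011438 and 3.80 (adjusted p = 0.144) for ENSRNOG00000012051. The fit holds the day libraries that chose these identifiers, so their values and adjusted p are a description. Groups of 3 libraries are too small for the test of single libraries that stand apart.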

How the results depend on the processing

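Against 86 calls between SCGX day and Sham day, DESeq2 gave 300 (233 with its fold change prior), no count filter gave 156, a model of all 24 in vivo libraries gave 165 and an adjusted p under 0.05 with a fold change over 2 gave 502. Without 1 library the count was between 6 and 101. All 86 genes were among the DESeq2 calls, 84 with the prior, and 71 were called in the model of all 24 libraries. The share raised was 58.1%, and 64.7% without a filter, 66.7% in the model of all 24 libraries, 38.5% with the replicate block and 45.5% to 77.8% without 1 library. With the replicate number as a block 13 genes were called, 11 of them among the 86. Same-numbered libraries deviated from their group means with r = 0.0388, -0.0652 and -0.0350, so the numbers were not taken to pair the pools. The interaction count of 728 became 1629 with DESeq2, 451 with the replicate block and 410 to 1017 without 1 library. SCGX day against DCN day was 0 in every edgeR fit and 56 with DESeq2. SCGX day against Control day, with 218 calls, gave 415 with DESeq2, 368 without a filter, 133 with the replicate block and 116 to 170 without 1 library. The counts of called genes by Control rhythm (65 of 86 in the direction of the night) and by NE response (44 of 64 tested) stayed within 63 to 65 and 41 to 45 over their alternatives, the block included. Those alternatives varied only the Control or the culture fit and kept the 86 genes fixed. The counts were not examined for genes called under other settings. ENSRNOG00000011438 has no value with at least 10 read-pairs required in every library. Why the counts of calls move was not tested.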
